A study of Mus musculus with 12 samples.

Results

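The cytochromes P450 of the Cyp3a family were followed in mouse liver together with Nr1i2 (the pregnane X receptor, PXR), Nr1i3 (the constitutive androstane receptor, CAR) and Por (cytochrome P450 oxidoreductase). The set holds 10 of the 52636 genes counted. It was taken by name, through the Ensembl identifiers of the counted genes, and consists of Cyp3a11, Cyp3a13, Cyp3a16, Cyp3a25, Cyp3a41a, Cyp3a44, Cyp3a59, Nr1i2, Nr1i3 and Por. The low-count filter left 14433 genes for testing, among them 7 of the 10, and took out Cyp3a16, Cyp3a41a and Cyp3a44. RNA was sequenced from Liver of C57BL/6 mice aged 12 weeks in 12 libraries, which form 4 groups of 3. The ko_HFD group was p53 knockout (ko) on the high-fat diet (HFD), and the wt_HFD group was p53 wild type (wt) on the HFD. The ko_normal group was p53 knockout on the normal diet, and the wt_normal group was p53 wild type on the normal diet. The design sets ko against wt livers on each diet. How the knockout allele was made, how long the diet lasted, and when and in what feeding state livers were taken is not stated in the sources used here.

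Cyp3a enzymes sit in the endoplasmic reticulum of hepatocytes, the main cells of the liver, and oxidise drugs, steroids and bile acids. They receive electrons from NADPH through Por, the reductase shared by the microsomal P450 enzymes. PXR and CAR are nuclear receptors that bind DNA as partners of the retinoid X receptor. They respond to foreign compounds and to bile acids, and they raise transcription of Cyp3a genes and of other genes for drug oxidation, conjugation and transport. Cyp3a11 is the classical PXR target of mouse liver, and Cyp2b10 is the classical CAR target.

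The upstream sequences are shown first. Over these libraries the levels of Cyp3a25 and Cyp3a59 correlated with that of Cyp3a11, and that of Cyp3a13 did not. Whether the upstream sequences bear on these levels was not tested. Each sequence is the 250 bases before the RefSeq transcript start on GRCm38.p6, read 5′ to 3′ on the strand of the gene. The regions are chr5:145879855-145880104 (minus strand) for Cyp3a11, chr5:146009619-146009868 (minus strand) for Cyp3a25, chr5:146079008-146079257 (plus strand) for Cyp3a59, chr5:137921620-137921869 (minus strand) for Cyp3a13 and chr5:145805875-145806124 (minus strand) for Cyp3a44. Capitals mark each match to the nuclear receptor half-site AGGTCA or to its reverse complement TGACCT.
Cyp3a11: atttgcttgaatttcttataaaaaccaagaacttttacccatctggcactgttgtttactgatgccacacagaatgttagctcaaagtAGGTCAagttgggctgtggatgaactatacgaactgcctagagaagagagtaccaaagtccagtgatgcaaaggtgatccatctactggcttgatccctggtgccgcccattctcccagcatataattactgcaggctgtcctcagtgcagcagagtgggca
Cyp3a25: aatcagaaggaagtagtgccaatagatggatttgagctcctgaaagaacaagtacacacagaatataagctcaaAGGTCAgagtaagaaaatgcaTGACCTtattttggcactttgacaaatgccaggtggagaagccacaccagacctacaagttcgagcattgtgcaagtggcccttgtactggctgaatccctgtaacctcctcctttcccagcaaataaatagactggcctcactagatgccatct
Cyp3a59: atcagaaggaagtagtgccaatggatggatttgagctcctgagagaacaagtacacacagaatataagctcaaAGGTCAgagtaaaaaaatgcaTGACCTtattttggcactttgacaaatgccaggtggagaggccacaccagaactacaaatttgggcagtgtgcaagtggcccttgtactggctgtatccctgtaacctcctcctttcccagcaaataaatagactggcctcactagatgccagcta
Cyp3a13: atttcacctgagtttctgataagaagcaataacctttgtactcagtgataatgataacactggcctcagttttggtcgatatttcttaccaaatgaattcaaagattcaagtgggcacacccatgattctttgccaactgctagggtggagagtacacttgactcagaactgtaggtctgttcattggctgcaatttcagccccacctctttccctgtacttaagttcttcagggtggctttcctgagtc
Cyp3a44: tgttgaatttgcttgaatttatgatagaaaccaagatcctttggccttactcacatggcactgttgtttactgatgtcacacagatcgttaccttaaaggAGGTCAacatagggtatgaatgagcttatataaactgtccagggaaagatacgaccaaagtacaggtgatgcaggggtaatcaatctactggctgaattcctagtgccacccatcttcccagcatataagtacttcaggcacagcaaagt
The half-site was found once upstream of Cyp3a11, with its first base at position -162 from the start. Upstream of Cyp3a25 it was found 2 times, at -176 and -155 on opposite strands. Cyp3a59 had the same pair at -177 and -156. Cyp3a44 held 1 match at -150, and the 250 bases before Cyp3a13, Cyp3a16, Cyp3a41a, Nr1i2, Nr1i3 and Por held none. For comparison, 14% of 32851 RefSeq promoters hold at least 1 match in the same window. A match on either strand was counted and is a description of letters only. The variant half-site AGTTCA or its reverse complement TGAACT, held by 11.8% of promoters, was found at -142 upstream of Cyp3a11 and at -130 upstream of Cyp3a41a. The direct repeats DR3 and DR4, in which 3 or 4 bases separate AGGTCA from a second AGGTCA, were searched on both strands and matched no promoter of the set. They were also rare among all promoters, at 0.00609% and 0.0152%.

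**Figure D1:**
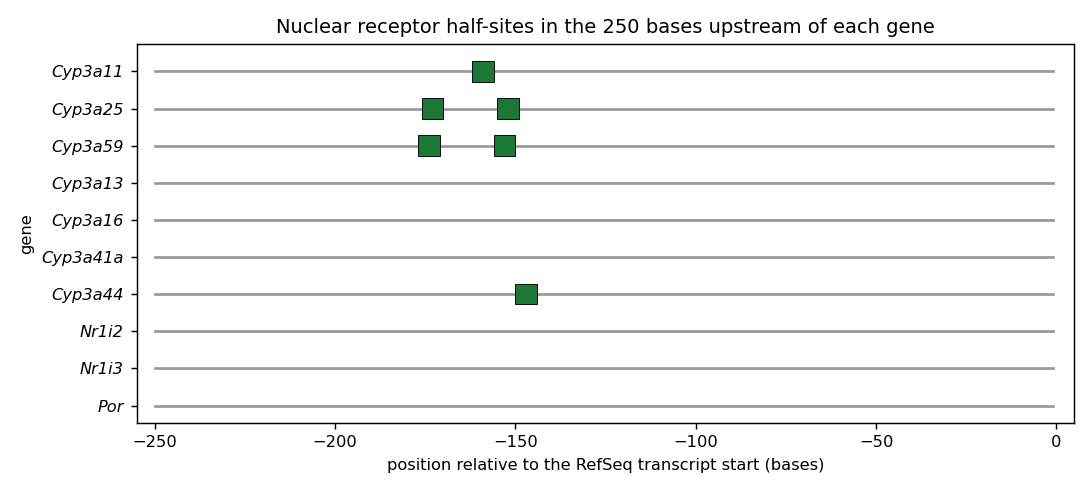
Positions of half-site matches (green blocks of 6 bases, to scale) in the 250 bases before the RefSeq start of each of the 10 genes, with distance from the start in bases on the horizontal axis. The pairs upstream of Cyp3a25 and Cyp3a59 lie within 1 base of each other, Cyp3a11 and Cyp3a44 have 1 match each, and the other 6 genes have none.

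In a global alignment of the 250 bases, 95.2% were identical between Cyp3a25 and Cyp3a59. Cyp3a16 and Cyp3a44 shared 94.4%. Cyp3a11 was closer to Cyp3a16, at 80%, than to Cyp3a25, at 65.2%. Upstream sequences of unrelated genes gave values up to 60% by the same alignment (Nr1i3 with Por), so the 63.6% between Cyp3a11 and Cyp3a13 is little above that. The genes themselves stand close together. In GENCODE release M21 on GRCm38, whose positions are not the authors' coordinates, Cyp3a11 lies at chromosome 5, 145854426 to 145879964. Cyp3a25 is at 145977194 to 146009618 and Cyp3a59 at 146079257 to 146113287. Cyp3a13 (137892932 to 137921619) and Por (135670033 to 135735326) lie apart from this cluster on the same chromosome. The RefSeq start used for Por lies inside these bounds, so its upstream window, chr5:135688895-135689144, is within the gene. The bases before the GENCODE start of Por were not searched. Nr1i2 is on chromosome 16 and Nr1i3 on chromosome 1.

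Near-identical copies can share reads, so the transcripts were compared in windows of 50 bases. Of the windows of Cyp3a41a, 98.6% were also found in another gene, 93.7% in Cyp3a41b. For Cyp3a59 the share was 30.02%, mostly with Cyp3a25, and for Cyp3a25 it was 26.8%, mostly with Cyp3a59. Cyp3a11 shared 6.73% of its windows. Cyp3a13, Nr1i2 and Por shared none. Nr1i3 shared 63.6% of its windows with Tomm40l, a gene of the mitochondrial import channel family that overlaps it on the opposite strand. Whether strand was used in counting is not stated in the sources used here, so reads of Nr1i3 and Tomm40l cannot be told apart in the overlap. Tomm40l itself was credited with 68 to 233 counts per library, against 688 to 1233 for Nr1i3.

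Library totals ran from 15465187 to 20492567 counts. Levels are normalised read counts in CPM, counts scaled to a common library total with a TMM factor for each library. Trp53, the gene of p53, was at 0.273 to 1.62 CPM in the 6 ko libraries and 8.54 to 24.5 CPM in the 6 wt libraries. The libraries looked like male liver, with Xist at most 0.752 CPM and the Y-linked Ddx3y at 28.2 to 49.1 CPM. Of 6 hepatocyte markers, Alb alone was at 17789 to 45464 CPM. The 6 enterocyte markers summed to 416 to 851 CPM in ko_HFD and 506 to 708 CPM in wt_HFD libraries, against 178 to 469 CPM in ko_normal and 125 to 396 CPM in wt_normal libraries. Among them Sis had no count, and Lct, Alpi and Vil1 were at most 0.283, 0.397 and 2.32 CPM. The sums thus lay almost wholly in Fabp2 and Apoa4, the 2 that passed the low-count filter. Both had log2 changes above 0 on the HFD in each genotype and were not called. Their part in the Cyp3a values was not tested. Library wt_normal replicate 2 stood apart, with 6853 CPM summed over 6 skeletal muscle markers against at most 11.3 CPM in any other library. The share of mitochondrially encoded genes was highest in ko_normal replicate 1, at 14.6%, and next in ko_HFD replicate 2, at 10.3%. The other 10 libraries had 4.18% to 7.22%. No label states that the replicates are separate animals. The p-values therefore refer to the spread among these libraries, some of which may be technical.

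On the normal diet, Cyp3a11 was the most abundant of the 7 tested genes per kilobase of principal transcript. In wt_normal livers it had 629 ± 81.1 CPM per kilobase (SD, n = 3). Cyp3a25, a second liver Cyp3a of the same cluster, had 280 ± 30.1 CPM per kilobase and Por had 178 ± 63.5. Cyp3a13, which is known in mouse gut as well as liver, had 46.9 ± 6.22 CPM per kilobase. Nr1i2 at 40.2 ± 11.6 and Nr1i3 at 38.1 ± 3.36 CPM per kilobase had SD ranges that overlapped each other and that of Cyp3a13. By single wt_normal libraries, however, every Nr1i3 value per kilobase lay below every Cyp3a13 value. Cyp3a59 was lowest at 10.9 ± 2.63 CPM per kilobase. With merged exons as the length, Cyp3a11 came to 290, Cyp3a25 to 269 and Nr1i3 to 12.2 CPM per kilobase in wt_normal livers. The receptors then no longer stood level. In ko_normal livers Cyp3a25 lay above Cyp3a11 by that length, at 299 against 257 CPM per kilobase.

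The order changed on the HFD. In wt_HFD livers Por had 213 ± 137 CPM per kilobase, and Cyp3a25 (63.1 ± 57.1), Cyp3a13 (57.5 ± 1.97), Nr1i2 (53.4 ± 23.2) and Cyp3a11 (48.8 ± 18.4) were within their spread of each other. In ko_HFD livers Por (226 ± 117), Cyp3a25 (216 ± 93.1) and Cyp3a11 (155 ± 44.6) lay above the rest. Cyp3a59 was the lowest tested gene in each of the 4 groups.

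**Figure D2:**
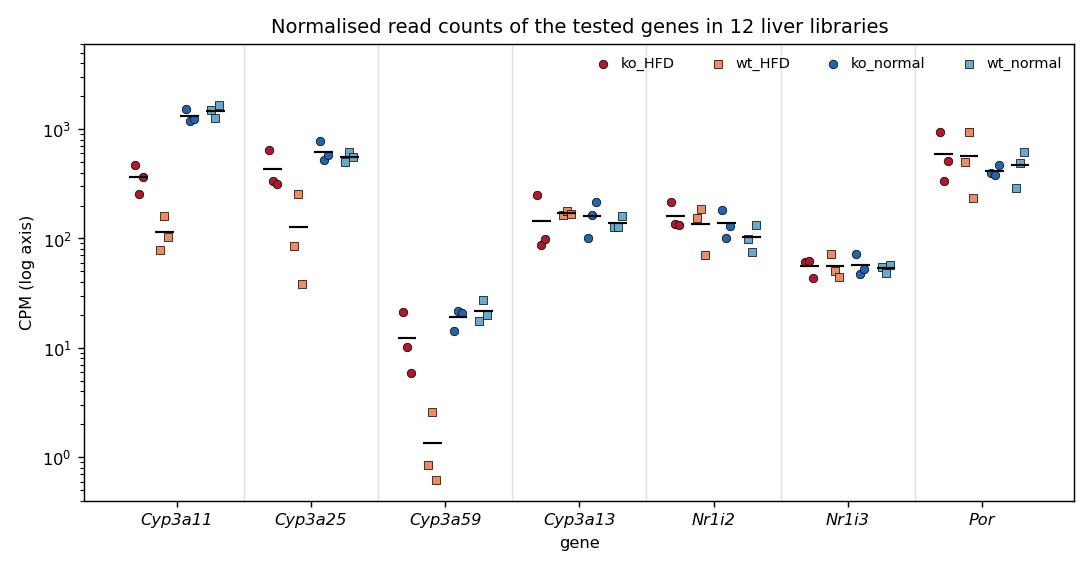
Normalised read counts (CPM, log axis) of the 7 tested genes in each of the 12 libraries. Points are libraries, black bars are means of 3, and groups run from left to right as ko_HFD, wt_HFD, ko_normal and wt_normal. Cyp3a11 was lower in all 6 HFD libraries (77.8 to 465 CPM) than in the 6 normal-diet libraries (1181 to 1651 CPM), whereas Nr1i3 stayed between 43.1 and 72.4 CPM throughout.

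The comparison of diets in wt livers asks how the family responded to the HFD with p53 present. Cyp3a11 and Cyp3a59 fell on the HFD, and the other tested members did not pass the test. Cyp3a11 had 77.8, 162 and 104 CPM in wt_HFD libraries, against 1499, 1274 and 1651 CPM in wt_normal libraries. Each HFD library was thus below each normal-diet library, by several fold. The fitted log2 change was -3.69 (95% interval -4.36 to -3.02), a 12.9-fold lower level, with adjusted p = 0.000221 in edgeR's quasi-likelihood test.

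Cyp3a59, a close copy of Cyp3a25 in the cluster, had 0.842, 2.58 and 0.623 CPM in wt_HFD libraries and 17.6, 27.6 and 19.8 CPM in wt_normal libraries. The wt_HFD values rest on 11 to 40 counts per library. The log2 change was -4.02 (-5.20 to -2.84) with adjusted p = 0.0103 by edgeR. Cyp3a25 had 85.3, 255 and 38.1 CPM in wt_HFD livers, against 504, 624 and 552 CPM in wt_normal livers. The groups did not overlap, yet the 3 wt_HFD libraries spread widely. Its log2 change of -2.15 (-3.30 to -0.997) missed the threshold at adjusted p = 0.0868 by edgeR.

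Cyp3a13, the relative outside the cluster, was not lower. It had 166, 177 and 168 CPM in wt_HFD livers and 129, 127 and 160 CPM in wt_normal livers. These groups did not overlap either, but the log2 change was 0.30 (-0.48 to 1.07) with adjusted p = 0.713 by edgeR. In all, 2 of the 7 tested members were called, both lower, where 0.693% of the 14433 genes were called in this comparison and 0.263% were called lower. The groups did not overlap for 3 members that were lower and 1 that was higher on the HFD. Over all tested genes the shares were 10.7% lower and 11.2% higher, so lack of overlap by itself was common. The median log2 change of the 7 members was 0.05, against -0.03 over all tested genes, with Cyp3a13, both receptors and Por at values above 0.

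Leaving out wt_HFD replicate 2, the library with the highest Cyp3a11, Cyp3a25 and Cyp3a59 of its group, moved Cyp3a25 past the threshold (log2 change -3.15, adjusted p = 0.0140 by edgeR). Over 18 alternatives its adjusted p ran from 0.00237 to 0.220, and 3 of them called it. Cyp3a11 and Cyp3a59 were called in all 18, with a highest adjusted p of 0.00844 and 0.0499. Without wt_normal replicate 2, the library with muscle transcripts, the log2 change was -3.76 for Cyp3a11 and -3.79 for Cyp3a59.

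In ko livers no member passed the test for the same diet contrast. Cyp3a11 had 465, 256 and 366 CPM in ko_HFD libraries and 1521, 1181 and 1227 CPM in ko_normal libraries. The groups did not overlap, which was so for 5.96% of all genes in the lower direction and for no other member. The log2 change was -1.85 (-2.48 to -1.23), a 3.61-fold lower level, with adjusted p = 0.0713 by edgeR. None of the 7 members was called by edgeR, and the background was 0%, none of the 14433 genes. At an unadjusted p under 0.05, 1 member and 812 of all genes passed. DESeq2's Wald test called 1 member, Cyp3a11, at adjusted p = 3.1e-07, in a range of 3.1e-07 to 0.459 over 18 alternatives, 2 of which called it. In all, DESeq2 called 34 genes in this contrast.

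Cyp3a25 had 648, 335 and 315 CPM in ko_HFD livers, against 773, 519 and 574 CPM in ko_normal livers. The highest ko_HFD value lay among the ko_normal ones, and the log2 change of -0.52 (-1.63 to 0.58) had adjusted p = 0.937 by edgeR. Cyp3a59 had 21.1, 10.1 and 5.95 CPM in ko_HFD livers and 14.1, 21.9 and 21.0 CPM in ko_normal livers. Library ko_HFD replicate 1 was as high as the ko_normal libraries, and the log2 change was -0.62 (-1.61 to 0.38). Cyp3a13 had 250, 87.7 and 99.9 CPM in ko_HFD livers, against 100, 163 and 214 CPM in ko_normal livers. Its single high value was again in ko_HFD replicate 1.

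Averaged over both genotypes, Cyp3a11 was lower on the HFD by a log2 change of -2.77 (-3.23 to -2.31; adjusted p = 0.000134 by edgeR) and lay lower in 6 of 6 HFD libraries. Cyp3a59 was lower by -2.32 (-3.08 to -1.55; adjusted p = 0.0118). These were the 2 members called, both lower, where 1.04% of all genes were called and 0.457% were called lower. Cyp3a25 had a log2 change of -1.34 (-2.13 to -0.54) and adjusted p = 0.0987. In bulk liver, less Cyp3a RNA per cell and fewer cells that express it cannot be told apart. Pericentral hepatocytes are known as the main site of Cyp3a11 in the lobule, and none of 8 pericentral markers was called in any of the 7 contrasts. Their summed level was 9795 to 11623 CPM in ko_HFD, 8503 to 10450 CPM in wt_HFD, 7688 to 10322 CPM in ko_normal and 8888 to 11636 CPM in wt_normal libraries. Of 6 periportal markers, 3 were called lower on the HFD averaged over genotypes: Hal and Gls2, enzymes of histidine and glutamine breakdown, and Pck1 of gluconeogenesis. The summed periportal level was 3185 to 4360 CPM in ko_HFD and 1751 to 2878 CPM in wt_HFD libraries, against 5137 to 7003 CPM in ko_normal and 4562 to 6283 CPM in wt_normal libraries. Its part in the Cyp3a values was not tested.

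**Figure D3:**
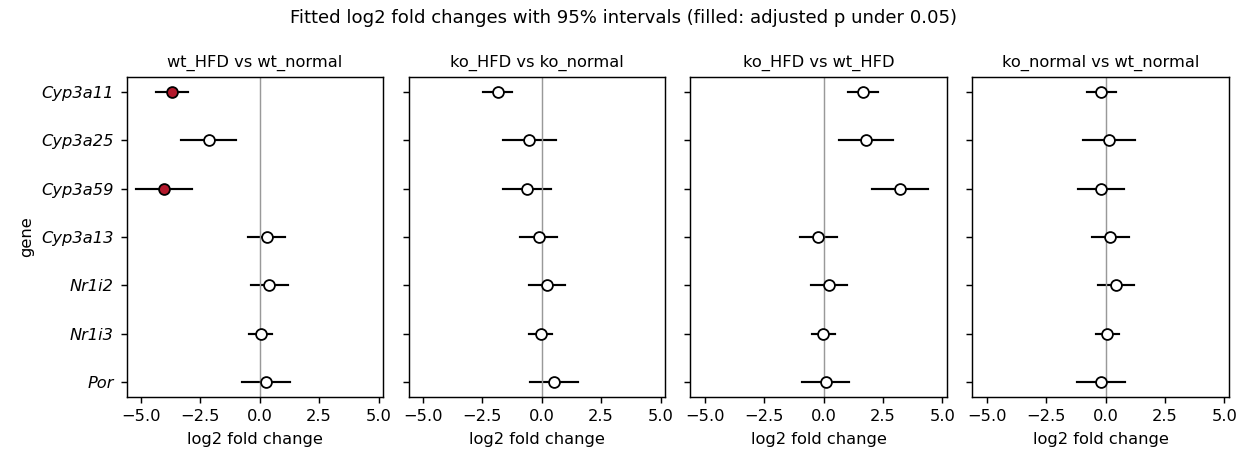
Fitted log2 fold changes (points) with 95% intervals (lines) of the 7 tested genes in 4 contrasts, filled where edgeR's adjusted p was under 0.05. Cyp3a11 (-3.69) and Cyp3a59 (-4.02) are filled in wt_HFD against wt_normal and no other point is. In ko_HFD against wt_HFD the intervals of Cyp3a11, Cyp3a25 and Cyp3a59 lie above 0.

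The comparison of ko with wt livers on the HFD asks whether loss of p53 altered these levels under the dietary load. Every ko_HFD library had more Cyp3a11, Cyp3a25 and Cyp3a59 than every wt_HFD library, but no member passed the test. Cyp3a11 had 362 ± 105 CPM in ko_HFD livers and 114 ± 43.2 CPM in wt_HFD livers (SD, n = 3 each), a log2 difference of 1.66 (1.04 to 2.28; adjusted p = 0.0609 by edgeR). Cyp3a25 had 433 ± 186 CPM in ko_HFD livers and 126 ± 114 CPM in wt_HFD livers, a difference of 1.78 (0.64 to 2.92; adjusted p = 0.401). Cyp3a59 had 12.4 ± 7.81 CPM in ko_HFD livers and 1.35 ± 1.07 CPM in wt_HFD livers, a difference of 3.21 (2.05 to 4.37; adjusted p = 0.0509).

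Of all genes, 0.0693% were called in this contrast and 6.7% lay higher in ko_HFD without overlap. For these 3 members the unadjusted p was under 0.05, as it was for 1278 of the 14433 genes. DESeq2's Wald test called 2 of the 3, Cyp3a11 and Cyp3a59, among 83 genes called in all. Cyp3a59 was called in 4 of 18 alternatives and Cyp3a11 in 3 of 18. Their adjusted p ran from 1.5e-07 to 0.341 and from 4.1e-06 to 0.321 over those alternatives. Without wt_HFD replicate 2 all 3 were called by edgeR, at adjusted p = 0.0432 for Cyp3a11, 0.0483 for Cyp3a25 and 0.0393 for Cyp3a59. Cyp3a25 was called in that 1 of 18 alternatives, in a range of 0.0483 to 0.680. Cyp3a13 did not take part, with 146 ± 90.3 CPM in ko_HFD livers and 170 ± 5.83 CPM in wt_HFD livers.

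On the normal diet ko and wt livers overlapped for all 7 tested members. Cyp3a11 had 1310 ± 184 CPM in ko_normal and 1475 ± 190 CPM in wt_normal livers, a log2 difference of -0.17 (-0.77 to 0.43; adjusted p = 0.814 by edgeR). The differences of Cyp3a25 (0.15, interval -0.95 to 1.26) and Cyp3a59 (-0.19, interval -1.17 to 0.79) were also small beside their intervals. No member was called by edgeR, which called 0.208% of all genes, or by DESeq2, which called 491 genes. None had an unadjusted p under 0.05, against 2176 of the 14433 genes.

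Averaged over both diets, 1.16% of all genes were called between ko and wt livers and no member was. Cyp3a11 differed by 0.75 (0.32 to 1.18; adjusted p = 0.0876 by edgeR), Cyp3a59 by 1.51 (0.76 to 2.27; 0.0599) and Cyp3a25 by 0.96 (0.18 to 1.75; 0.179) on the log2 scale. All 3 had an unadjusted p under 0.05, as did 2700 of the 14433 genes. DESeq2 called Cyp3a11 and Cyp3a59, among 787 genes called in all. The difference between the ko effects on the HFD and on the normal diet was tested directly. It was 1.83 for Cyp3a11 (0.97 to 2.69; adjusted p = 0.675 by edgeR), 3.40 for Cyp3a59 (1.89 to 4.91; 0.675) and 1.63 for Cyp3a25 (0.05 to 3.20; 0.970). No gene was called (0%), and 725 of all genes and 3 members had an unadjusted p under 0.05. DESeq2 called Cyp3a11 and Cyp3a59, at adjusted p = 0.00665 and 0.00162, in ranges of 0.00665 to 0.9999 and 0.00162 to 0.9999 over 17 alternatives. In all, DESeq2 called 20 genes for this difference.

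The makeup of the family shifted with its total. Summed over all annotated Cyp3a genes, the libraries held 1385, 689 and 787 CPM in ko_HFD, 329, 597 and 310 CPM in wt_HFD, 2408, 1885 and 2035 CPM in ko_normal and 2149, 2052 and 2383 CPM in wt_normal. The sums fell into separate ranges for wt_HFD, ko_HFD and the normal diet, and the ko_normal and wt_normal libraries overlapped. The sum does not depend on how reads were split between copies of the family, provided that each shared read was counted once. How shared reads were counted is not stated in the sources used here. No test was made of the sum.

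Cyp3a11 supplied 33.6% to 46.5% of the family's CPM in ko_HFD and 23.6% to 33.4% in wt_HFD libraries. On the normal diet it supplied 60.3% to 63.2% in ko_normal and 62.1% to 69.7% in wt_normal libraries. Cyp3a13 supplied 12.7% to 18.0% in ko_HFD and 29.6% to 54.1% in wt_HFD libraries. Its share was 4.16% to 10.5% in ko_normal and 5.99% to 6.71% in wt_normal libraries. In CPM, Cyp3a13 spanned 166 to 177 in wt_HFD and 127 to 160 in wt_normal libraries, a narrow span beside the difference in the family's sum.

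**Figure D4:**
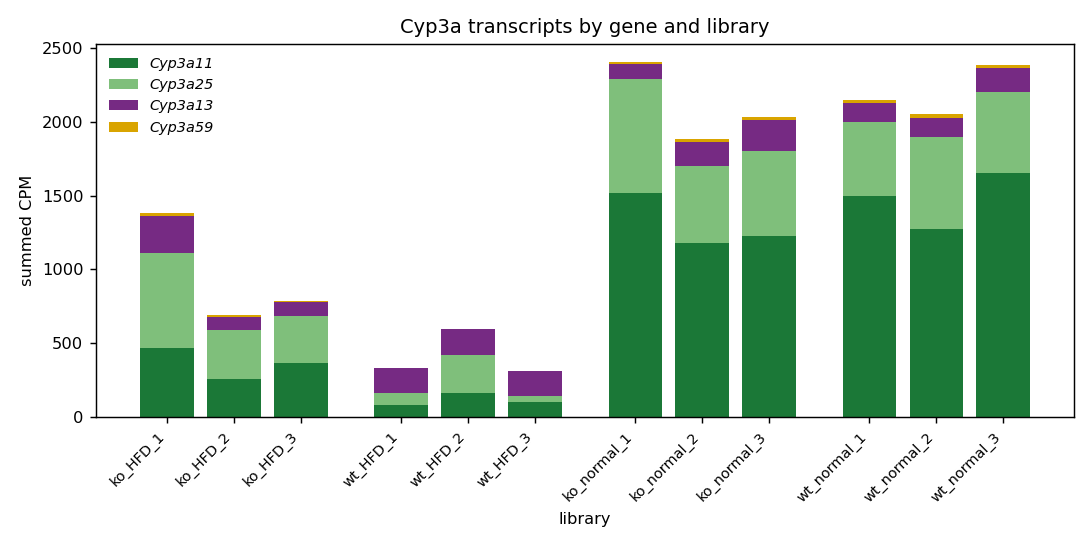
CPM of Cyp3a11, Cyp3a25, Cyp3a13 and Cyp3a59 stacked for each of the 12 libraries (bars start at 0). The bars reach 689 to 1385 CPM in ko_HFD and 310 to 597 CPM in wt_HFD, against 1885 to 2408 CPM in ko_normal and 2052 to 2383 CPM in wt_normal. Cyp3a11 is the largest segment in all 6 normal-diet bars.

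The ratio of Cyp3a25 to Cyp3a11 in CPM was 0.862 to 1.39 in ko_HFD and 0.368 to 1.57 in wt_HFD libraries. It was 0.439 to 0.508 in ko_normal and 0.334 to 0.490 in wt_normal libraries. The ko_HFD ratios thus lay above all 6 normal-diet ratios, and 2 of the 3 wt_HFD ratios did so. Cyp3a59 stood at 1.89% to 3.26% of Cyp3a25 in ko_HFD and 0.987% to 1.64% in wt_HFD libraries, against 1.83% to 4.22% in ko_normal and 3.49% to 4.42% in wt_normal libraries. Since 26.8% of the Cyp3a59 windows are also found in Cyp3a25, part of the Cyp3a59 counts may come from Cyp3a25 transcripts, and how they were assigned was not tested.

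The remaining members were at or near 0. Cyp3a16, known from fetal and newborn mouse liver, and Cyp3a41a, known as female-predominant in mouse liver, had 0 counts in all 12 libraries. So did Cyp3a41b, the near copy of Cyp3a41a. A count of 0 over all 12 libraries allows a level of up to 0.0141 CPM (3 counts of the total, counting error only). Cyp3a44, also female-predominant, had 19 counts in 6 libraries, of which 11 were in ko_HFD replicate 1 (0.642 CPM) and 1 or 2 in each of the other 5. Cyp3a57, a further gene of the cluster, had 3 counts, all in ko_HFD replicate 1. For Cyp3a41a and Cyp3a41b a count of 0 may also mean that shared reads were not counted, which was not tested.

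No change of the receptors passed the test, in the same libraries in which Cyp3a11 fell. Nr1i2 had 214, 137 and 133 CPM in ko_HFD, 153, 185 and 70.3 CPM in wt_HFD, 184, 102 and 129 CPM in ko_normal and 99.5, 74.6 and 134 CPM in wt_normal libraries. The groups overlapped in every contrast. Its log2 change on the HFD was 0.41 in wt livers (-0.35 to 1.17; adjusted p = 0.589 by edgeR) and 0.22 in ko livers (-0.53 to 0.98).

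Nr1i3 had the smallest ratio of highest to lowest CPM of the 7 over the 12 libraries, with 61.1, 62.2 and 43.1 CPM in ko_HFD, 72.4, 50.3 and 44.4 CPM in wt_HFD, 71.4, 46.9 and 52.2 CPM in ko_normal and 55.3, 48.5 and 57.7 CPM in wt_normal libraries. All 4 group means lay between 53.8 and 56.8 CPM. Its log2 change on the HFD was 0.05 in wt livers (-0.43 to 0.53) and -0.03 in ko livers (-0.52 to 0.45). These intervals leave room for changes in either direction of up to about 0.5 on the log2 scale, well short of the -3.69 of Cyp3a11.

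Within ko_HFD, wt_HFD and wt_normal, Por varied more between libraries than the group means did, and within ko_normal it varied less. It had 939, 338 and 510 CPM in ko_HFD, 504, 950 and 233 CPM in wt_HFD, 397, 377 and 465 CPM in ko_normal and 289, 495 and 621 CPM in wt_normal libraries. The 2 highest values, 939 and 950 CPM, were in ko_HFD replicate 1 and wt_HFD replicate 2. The log2 change on the HFD was 0.26 in wt livers (-0.74 to 1.27) and 0.53 in ko livers (-0.48 to 1.53), and neither passed the test.

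Other known targets of PXR and CAR were read from a list of 29 genes outside the Cyp3a family, of which 26 were tested. On the HFD in wt livers 4 were called lower and none higher, where 0.263% of all genes were called lower. The median log2 change of the 26 was -0.66 against -0.03 over all tested genes. Gsta2, a glutathione transferase, had 0.841 ± 0.506 CPM in wt_HFD and 18.8 ± 1.60 CPM in wt_normal livers, and was lower by a log2 change of -4.49 (SE 0.48), with adjusted p = 0.00151 in edgeR's test. Slco1a4, an uptake transporter for bile acids and drugs, changed by -2.51 (adjusted p = 0.0240). Gstm1, another glutathione transferase, changed by -1.35 (adjusted p = 0.0483), and the export pump Abcc3 by -1.16 (adjusted p = 0.0240). Gsta and Gstm genes have close relatives that may share reads. Of the other 22, 16 had a log2 change below 0 and 6 had one above 0. The largest of these 6 were Cyp2b9 (3.26), Gadd45b (1.45) and Cyp2b10 (1.29), none of them called. Cyp2b9 was at most 2.21 CPM in any library.

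In ko livers none of the 26 was called on the HFD, with 13 above and 13 below 0 and a median of -0.01. Averaged over genotypes, 5 were called lower and none higher, where 0.457% of all genes were called lower, with a median of -0.37 against -0.02 over all genes. Ugt1a9, a glucuronosyltransferase, was the fifth, at -3.43 (adjusted p = 0.0186 by edgeR). Genes of the Ugt1a locus share exons, so its counts are uncertain. The ko_HFD to wt_HFD difference was above 0 for 24 of 26 genes, with a median of 0.77 against -0.01 over all genes, but none was called by edgeR. On the normal diet the same difference was above 0 for 16 of 26, with a median of 0.20. These contrasts share libraries with those of the diet, so their directions are not independent of one another.

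Averaged over diets, 4 of the 26 were called higher in ko livers, where 0.79% of all genes were. Cyp2a5, a coumarin hydroxylase, differed by 1.79, Slco1a4 by 1.33, Cyp2c54, a P450 of the Cyp2c family, by 1.196 and the glutathione transferase Gstt1 by 1.04 on the log2 scale. Their adjusted p by edgeR was 0.00557, 0.0398, 0.0264 and 0.0245. Cyp2a5 and Cyp2c54 have close relatives that may share reads. Alb rose as well in this contrast, by 0.86, and the 6 hepatocyte markers summed to 68469 to 76640 CPM in ko_HFD and 42846 to 49785 CPM in wt_HFD libraries. On the normal diet they summed to 70775 to 73445 CPM in ko_normal and 38771 to 51908 CPM in wt_normal libraries. Of the 6 markers, 4 had differences above 0 and 2 below 0 (median 0.27) in this contrast. Alb was the 1 that passed the test, with means of 41884 CPM in ko_HFD and 23293 CPM in wt_HFD libraries. Averaged over diets, all 6 periportal markers had differences above 0 (median 0.49), with Cyp2f2 called at 0.89. All 6 endothelial markers had differences below 0 (median -0.77), with Lyve1 called at -1.82 (adjusted p = 0.0345 by edgeR). The endothelial markers summed to 83.7 to 143 CPM in ko_HFD and 109 to 182 CPM in wt_HFD libraries, against 94.7 to 139 CPM in ko_normal and 204 to 243 CPM in wt_normal libraries. Of 6 stellate markers, 5 were below 0 (median -0.66) and none was called. The stellate markers summed to 75.2 to 137 CPM in ko_HFD and 76.0 to 201 CPM in wt_HFD libraries. On the normal diet they summed to 92.8 to 96.2 CPM in ko_normal and, with a wide spread, 137 to 757 CPM in wt_normal libraries. The part of these differences in the target gene and Cyp3a values was not tested.

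**Figure D5:**
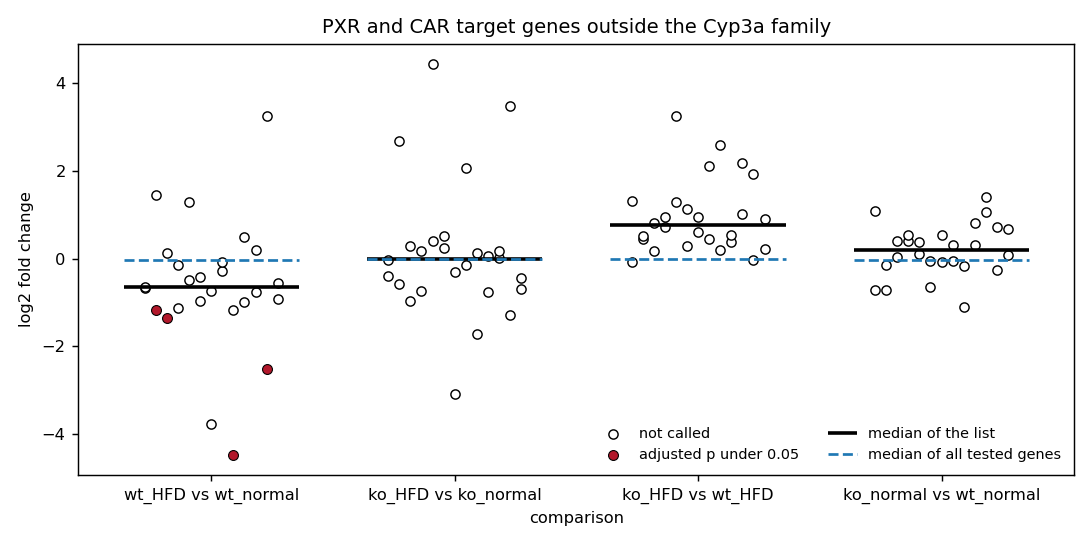
Fitted log2 fold changes of 26 tested PXR and CAR target genes outside the Cyp3a family in 4 contrasts (points, filled where edgeR's adjusted p was under 0.05), with the list's median (black line) and the median of all 14433 genes (dashed). The list's median is -0.66 in wt_HFD against wt_normal and 0.77 in ko_HFD against wt_HFD, and lies on the all-gene median in ko_HFD against ko_normal.

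Genes that work with the receptors or with the P450 enzymes showed few calls. Of 20 partners and regulators of PXR and CAR, none was called on the HFD in either genotype. Averaged over diets, where 1.16% of all genes were called, 2 of the 20 were called. Dbp rose in ko livers by 2.76 (adjusted p = 0.0419 by edgeR) and Hlf by 0.75 (adjusted p = 0.0478). Both are PAR bZIP factors, which act upstream of CAR and of drug metabolism genes in mouse liver. Rxra, the receptor partner, ran from 394 to 794 CPM and Hnf4a from 444 to 756 CPM over the 12 libraries, and neither was called. The D-box TTATGTAA, the motif of PAR bZIP factors, was found upstream of none of the 10 genes on either strand, and 0.819% of all promoters hold it.

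Dbp is itself an output of the circadian clock, and 2 of 14 clock genes were called between ko and wt livers averaged over diets, again beside 1.16% of all genes. Per2 rose by 1.42 (adjusted p = 0.0249 by edgeR), and Arntl, the clock activator, fell by 1.90 (adjusted p = 0.0291). Dbp was at 74.6 to 125 CPM in ko_HFD, 6.52 to 83.6 CPM in wt_HFD, 97.3 to 191 CPM in ko_normal and 2.04 to 13.5 CPM in wt_normal libraries. The hour of sampling is not stated in the sources used here and its part was not tested. Of 15 genes of P450 electron transfer and heme synthesis, Fdx1, the ferredoxin of mitochondrial P450 enzymes, was called higher in ko livers averaged over diets (0.57; adjusted p = 0.0431). No other was called in any contrast.

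Inflammation is known to lower Cyp3a transcripts, and 16 acute phase genes of the liver were followed for that reason. Saa4, a constitutive serum amyloid, was the 1 called member, higher on the HFD by 2.26 in wt livers (adjusted p = 0.0240 by edgeR), where 0.693% of all genes were called. The 16 genes summed to 19352 to 93307 CPM in ko_HFD and 84900 to 91754 CPM in wt_HFD libraries, against 14676 to 35602 CPM in ko_normal and 23301 to 37098 CPM in wt_normal libraries. Every wt_HFD library was high, as was ko_HFD replicate 1 with 15302 CPM of Saa1, while the other 2 ko_HFD libraries had 169 and 271 CPM of Saa1. Cyp3a11 had 465 CPM in ko_HFD replicate 1 and 256 and 366 CPM in the other 2. The part of the acute phase in the Cyp3a values was not tested.

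The male and female programs of liver P450 genes were also read. Of 10 female-biased genes, 4 passed the low-count filter and none was called, and their sum was at most 25.4 CPM. Among 10 male-biased genes, Serpina12 and Cyp2u1 were called higher on the HFD averaged over genotypes, by 2.26 and 0.75, where 1.04% of all genes were called in either direction. Serpina12 was also higher in ko_normal than in wt_normal livers, by 2.58. The part of these programs in the Cyp3a values was not tested.

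The genes whose log2 CPM over the 12 libraries was most like that of Cyp3a11 were Gsta2 (Pearson's r = 0.965), 2010015M23Rik (0.940), Abcc3 (0.938), Setd3 (0.931) and Snhg11 (0.920). These are descriptions over 12 libraries that share diets and genotypes. The group means of 2010015M23Rik were only 0.082 to 0.781 CPM, so its r rests on few counts. Gsta2 and Abcc3 are on the target list as well. Within the set, Cyp3a11 had r = 0.904 with Cyp3a59 and 0.855 with Cyp3a25. With Cyp3a13, Nr1i2, Nr1i3 and Por its r lay between -0.10 and -0.02. For Nr1i3 the closest were Rab40c (0.920), Rbm6 (0.919), Slx1b (0.916), Primpol (0.892) and Gm47445 (0.886). For Por they were Wdr36 (0.963), Smpd3 (0.879), AC117700.1 (0.878), Sema6b (0.872) and St3gal5 (0.867). None of these 10 genes was called on the HFD in wt livers.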

How the data were processed

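RNA of 12 mouse liver libraries was counted by the authors, and each deposited file gives raw read counts by Ensembl gene for 1 library. They were used as deposited. The submitters' processing notes name CASAVA 1.8, Bowtie 0.12.2 and the genome builds mm8 and mm9 with no role for each. What counted the reads, on which annotation and with or without strand, is not stated in the sources used here. Groups and replicate numbers came from the labels. Identifiers were matched to GENCODE M21 symbols for 52403 of 52636 genes.

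The genes and lists were chosen with earlier results of these data known. Counts were filtered with filterByExpr, scaled by TMM and fitted with edgeR 4.0.16 (R 4.3.3) (quasi-likelihood F-test), with all 4 groups in the same model and 8 residual and 4.66 prior degrees of freedom. Genes were called at a two-sided Benjamini-Hochberg adjusted p under 0.05 over 14433 genes. The SE is the log2 change divided by the root of F, and 95% intervals use the t distribution. All adjusted p-values come from this fit unless DESeq2 1.42.0 is named. There were 7 contrasts: HFD against normal diet in ko, in wt and averaged, ko against wt on each diet and averaged, and the ko effect on HFD minus that on the normal diet. The test was tried on simulated counts. Replicates of a group differed by 39.5 to 199 in chi-square per degree of freedom, where sampling noise gives about 1, so none was taken for a library deposited 2 times. This does not show that they are separate animals. Beyond the 10 genes and the other Cyp3a genes, the text names up to 4 called members of each list per contrast and the 5 genes most like Cyp3a11, Nr1i3 and Por. Ugt1a9, Cyp2b9, Gadd45b, single library values and the genes in the other observations were chosen after their values were seen. Alternatives were RLE scaling, no low-count filter, DESeq2's Wald test, only the groups compared, a replicate block, totals without mitochondrial genes, unscaled totals for levels, and each library left out. Promoters were read from RefSeq (GRCm38.p6) by symbol, and all 10 genes matched.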

Additional observations from a re-analysis of the deposited data

How the results depend on the processing

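The falls of Cyp3a11 and Cyp3a59 on the HFD, in wt livers and averaged over genotypes, kept their direction and their call in every alternative run, 18 and 17 in number. No called fold change of a member changed sign or lost its call. Counts of calls moved with the tool. Without the low-count filter, edgeR called 21 genes for the diet in ko livers, 696 for the diet in wt livers, 489 for the averaged diet, 51 for ko against wt on the HFD, 648 on the normal diet, 644 for the averaged genotype and 13 for the interaction of diet and genotype. DESeq2 called 34, 629, 744, 83, 491, 787 and 20 in the same order. Members called were 1 for the diet in ko livers by both, 2 for ko against wt on the HFD and averaged by both, and 1 without the filter and 2 by DESeq2 for the interaction. RLE scaling called 1 member, Cyp3a59, for ko against wt on the HFD (adjusted p = 0.0494, in a range of 1.5e-07 to 0.341 over 18 alternatives). A fit of only the groups compared called 2 genes for the diet in ko livers, 34 for the diet in wt livers, 6 for ko against wt on the HFD and 96 on the normal diet.

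Same-numbered libraries did not deviate together throughout (r of -0.21 to 0.33 between groups), so the numbers were not taken to pair the samples. With the replicate number as a block, members called stayed at 2 for the diet in wt livers and 2 for the averaged diet. All genes called came to 45 for ko against wt on the normal diet, 104 for the averaged diet and 157 for the averaged genotype. Nr1i3 turned to -0.0042 for the averaged diet and 0.013 for ko against wt on the HFD with the block, and to 0.0012 for ko against wt on the HFD without mitochondrial genes.

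With each library left out in turn, the genes called ran over 0 to 6 for the diet in ko livers, 9 to 131 for the diet in wt livers, 45 to 272 for the averaged diet, 2 to 14 for ko against wt on the HFD, 3 to 84 for ko against wt on the normal diet, 45 to 254 for the averaged genotype and 0 to 1 for the interaction of diet and genotype. Members called ran over 0 to 3 for ko against wt on the HFD and 0 to 3 for the averaged genotype, with the 3 called when wt_HFD replicate 2 was left out. Fold changes near 0 that missed the test changed sign 50 times over all alternatives, in 22 combinations of gene and contrast, at adjusted p of 0.614 or more. Their log2 ranges over the left-out libraries were, for Nr1i3, -0.15 to 0.16 for the diet in ko livers, -0.18 to 0.19 for the diet in wt livers, -0.11 to 0.11 for the averaged diet, -0.15 to 0.23 for ko against wt on the HFD, -0.12 to 0.21 for ko against wt on the normal diet, -0.062 to 0.15 for the averaged genotype and -0.22 to 0.15 for the interaction of diet and genotype. For Cyp3a13 they were -0.76 to 0.15 for the diet in ko livers, -0.22 to 0.23 for the averaged diet, -0.86 to 0.042 for ko against wt on the HFD, -0.062 to 0.45 for ko against wt on the normal diet and -0.32 to 0.12 for the averaged genotype. Nr1i2 ranged over -0.044 to 0.48 for the diet in ko livers, -0.067 to 0.53 for ko against wt on the HFD and -0.50 to 0.071 for the interaction of diet and genotype. Por ranged over -0.31 to 0.63 for the diet in wt livers, -0.41 to 0.69 for ko against wt on the HFD, -0.43 to 0.077 for ko against wt on the normal diet, -0.28 to 0.27 for the averaged genotype and -0.26 to 0.84 for the interaction of diet and genotype. Cyp3a25 ranged over -0.032 to 0.28 for ko against wt on the normal diet, and Cyp3a59 over -0.31 to 0.048 for ko against wt on the normal diet. These fold changes have no settled direction. Scaling by RLE moved the median of all genes by at most 0.0154. The level of Cyp3a59 in wt_HFD libraries rests on 11 to 40 counts each, which limits the precision of its fold change. The causes of these dependences were not tested.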

Other observations

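Cyp2b10, the classical CAR target, had at least 1 count in each of the 12 libraries and passed 1 CPM in 3 of them. It had 33.1, 0.115 and 3.26 CPM in ko_HFD, 0.240, 3.48 and 0.113 CPM in wt_HFD and at most 0.998 CPM in the 6 normal-diet libraries. Alas1, the rate-limiting enzyme of heme synthesis and a known target of both receptors, had 1802, 284 and 1890 CPM in ko_HFD, 505, 1125 and 439 CPM in wt_HFD, 214, 227 and 321 CPM in ko_normal and 238, 246 and 521 CPM in wt_normal libraries. Neither gene was called in any of the 7 contrasts by edgeR. Library ko_HFD replicate 1 had the highest Cyp2b10, Cyp3a13, Cyp3a44 and Nr1i2 of the 12 libraries and the highest Cyp3a11, Cyp3a25, Cyp3a59 and Por of its group. Library wt_HFD replicate 2 had the highest Cyp2b10, Alas1, Por, Nr1i2, Cyp3a11, Cyp3a25 and Cyp3a59 of its group. These patterns were noticed after the values were seen and were not tested.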
